A study of Mus musculus with 4 samples.

Results

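The RUNX transcription factors Runx1, Runx2 and Runx3, their shared subunit Cbfb, and the ETO co-repressors Runx1t1, Cbfa2t2 and Cbfa2t3 were followed in mouse blood progenitors transformed by an MLL-ENL fusion. These 7 genes were taken by symbol from the 55426 genes of the deposited tables, and no measured value entered the rule. The set was, however, chosen with earlier results of these data known. Poly(A) RNA was sequenced from 4 libraries. Of these, 2 came from lineage-negative bone marrow cells carrying the MLL-ENL fusion, in which the start of the histone methyltransferase MLL is joined to ENL. The other 2 came from cells whose fusion keeps only ENL residues 372 to 559 and so lacks the YEATS domain, the module of ENL that binds acylated histone tails (MLL-ENL dYEATS, dYEATS for short). Both lines were grown in IMEM with 15% serum. The sources used here do not give the mouse strain, the age or how the fusion was delivered. The replicates are called technical in the design text, so p-values measure the spread between libraries, and genotype and cell line cannot be told apart.

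RUNX proteins bind DNA through the Runt domain, and CBFB, which does not itself contact DNA, binds that domain and strengthens its hold. RUNX1 is needed for blood stem cells to arise and for myeloid genes to be expressed. RUNX2 is best known from bone and RUNX3 from lymphocytes and sensory neurons, although both are also made in blood cells. ETO proteins do not bind DNA by themselves and bring histone deacetylase complexes to DNA-bound factors. Genes of both families are broken in human acute myeloid leukaemia, where RUNX1 is fused to RUNX1T1 or CBFA2T3 and CBFB to a myosin gene.

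Library totals ran from 27812855 to 28814798 expected counts. Chi-square per degree of freedom over genes was 89.8 between the MLL-ENL libraries and 1.99 between the dYEATS libraries, so the former differed more. The ribosomal RNA gene CT010467.1 held 9.25% and 4.94% of counts in MLL-ENL replicates 1 and 2. In the dYEATS libraries it held 5.46% and 5.42%. The chi-square included this gene, and its part in the value was not tested. The label of the cells was checked against markers. The leukocyte gene Ptprc (229 and 274 CPM, the count scaled to a library of fixed size, as group means), the ETS factor Spi1 (176 and 242 CPM) and the progenitor factor Myb (1040 and 906 CPM) were present in both groups. The stem cell marker Slamf1 was at 0 in all 4 libraries, and Cd34, Flt3, Ly6a and Procr had at most 6 counts in any library. Kit lay at 58.7 CPM in MLL-ENL cells and at 3.27 CPM in dYEATS cells.

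The start regions of the RUNX genes are shown first, because the 3 genes share a stretch of sequence there while Runx1 and Runx3 moved in opposite directions. RefSeq windows of GRCm38.p6 that run from 250 bases before to 50 bases after a start site were matched for 6 of the 7 genes, in 9 windows. The longest run shared by the upstream (distal) window of Runx1, the window of Runx2 and the distal window of Runx3 was 18 bases long. It holds the hexamer ACCACA, the core sequence that RUNX proteins bind when read on one strand (TGTGGT on the other), in 2 copies whose first bases are 8 apart. The copies are in capitals, with the strand of the gene read 5′ to 3′.
Runx1 distal, chr16:92826025-92826054, minus strand: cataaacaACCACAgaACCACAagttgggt
Runx2, chr17:44814583-44814612, minus strand: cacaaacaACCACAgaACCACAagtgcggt
Runx3 distal, chr4:135120503-135120532, plus strand: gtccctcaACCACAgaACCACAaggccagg
Counting the RefSeq start site as 1, the shared run began 27 bases into the transcript in Runx1 and 22 bases into it in Runx2. In Runx3 it began 136 bases before the RefSeq start. The GENCODE spans of Runx1 and Runx2 reach further upstream, to chr16:92826149 and chr17:44814797, so positions counted from those ends would differ. Over all 32851 windows, 16.8% held ACCACA on either strand, 1.81% held 2 or more copies and 7 windows (0.0213%) held 2 copies at this spacing on 1 strand. The 18-base run was in 4 windows, those of Runx1, Runx2, Runx3 and Gm16225. The last of these lies on the opposite strand and overlaps the Runx3 window.

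The downstream (proximal) windows of Runx1 and Runx3, the window of Cbfb and that of Cbfa2t2 held neither ACCACA nor ACCGCA, the other common RUNX hexamer, on either strand. The share of windows with either hexamer was 22.4% over all genes. Runx2 held 4 hexamers in all, among them an ACCACA 80 bases before the RefSeq start, which lies inside the GENCODE span of the gene. The 250 bases before the start of Runx2 and Runx3 are given to show where hexamers (capitals) lie outside and inside the shared run.
Runx2, chr17:44814628-44814877, minus strand: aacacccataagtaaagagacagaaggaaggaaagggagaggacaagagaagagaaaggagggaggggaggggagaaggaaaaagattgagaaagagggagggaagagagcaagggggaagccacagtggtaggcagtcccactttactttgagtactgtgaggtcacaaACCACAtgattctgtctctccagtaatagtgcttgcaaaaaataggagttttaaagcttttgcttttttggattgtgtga
Runx3 distal, chr4:135120395-135120644, plus strand: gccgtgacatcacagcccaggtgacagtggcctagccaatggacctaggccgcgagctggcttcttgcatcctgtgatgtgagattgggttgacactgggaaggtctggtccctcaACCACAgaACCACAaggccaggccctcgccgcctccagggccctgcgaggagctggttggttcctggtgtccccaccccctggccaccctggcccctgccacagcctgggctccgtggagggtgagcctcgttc
GC content was 45.0% in the distal Runx1 window, 45.3% in the Runx2 window and 63.7% in the distal Runx3 window. A match describes the letters only, and which start site was used in these cells was not measured.

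Levels were compared between the genes in FPKM, which corrects for transcript length. Cbfb was the highest of the 7 in every library, at 56.91 and 70.75 FPKM in MLL-ENL cells and 95.18 and 94.81 FPKM in dYEATS cells. In the MLL-ENL libraries Runx1 (29.8 ± 3.29 FPKM, SD, n = 2) and Runx2 (28.8 ± 11.4 FPKM) followed and did not differ beyond their spread. Runx3 came next at 19.8 ± 4.56 FPKM, and its libraries overlapped the range of Runx2 but not that of Runx1. In the dYEATS libraries the order was Runx2 (46.9 ± 0.247 FPKM), Runx3 (33.5 ± 2.14 FPKM) and Runx1 (16.7 ± 1.43 FPKM), and none of these ranges overlapped.

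The ETO genes lay lower. Cbfa2t3, which encodes the co-repressor known as MTG16 or ETO2, was at 7.85 ± 0.177 FPKM in MLL-ENL cells and 6.78 ± 0.0566 FPKM in dYEATS cells. Cbfa2t2, also known as MTGR1, was at 5.25 ± 0.707 and 4.66 ± 0.552 FPKM, below Cbfa2t3 in each of the 4 libraries. Runx1t1, the ETO gene itself, had 1 count in 1 MLL-ENL library and 0 in the other 3. At these depths 3 counts, the limit that a count of 0 allows, correspond to 0.102 to 0.112 CPM, a limit that covers counting error only.

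**Figure D1:**
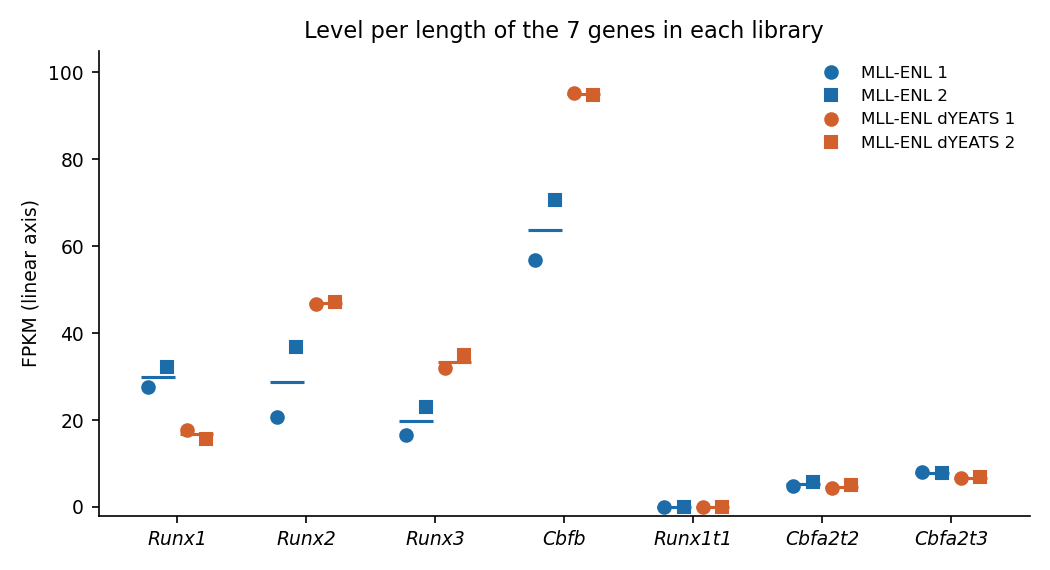
FPKM (vertical axis, linear) of each of the 7 genes (horizontal axis), with 1 point per library (circle, replicate 1, and square, replicate 2) and a line at each group mean, MLL-ENL in blue and dYEATS in orange. Runx1 is lower in both dYEATS libraries, Runx2, Runx3 and Cbfb are higher, and Runx1t1 is at or near 0.

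The main comparison asked how transcripts differ once the fusion keeps only ENL residues 372 to 559. The ENL residues held by the MLL-ENL fusion were not given in the sources used here. Loss of the YEATS domain therefore cannot be told apart from loss of other ENL residues before 372. Of the 7 genes 6 passed the filter on low counts, all but Runx1t1. Runx3 and Cbfb were called higher and Runx1 lower in dYEATS cells (quasi-likelihood test of edgeR, Benjamini-Hochberg adjusted p under 0.05 over 13245 genes). Over all genes tested 16.9% were called, 7.04% higher and 9.84% lower. In 5 of the 6 tested members, 3 higher and 2 lower, the libraries of the groups did not overlap, which held for 64.3% of all tested genes (32.1% higher and 32.2% lower). The median log2 fold change, dYEATS minus MLL-ENL throughout, was 0.21 over the 6 members and -0.012 over all tested genes.

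Runx1 (chromosome 16, 92601466 to 92826149, GRCm38) gave 104.7 and 118.2 CPM in MLL-ENL cells and 54.3 and 51.2 CPM in dYEATS cells. Both dYEATS values lay below both MLL-ENL values, and the pairs differed within themselves by 1.13-fold and 1.06-fold. The gene fell 2.11-fold (log2 fold change -1.08 ± 0.12 SE, adjusted p = 0.00429), a larger change in size than that of 88% of tested genes. The log2 fold change stayed between -1.17 and -0.99 when any 1 library was left out, and the gene was called in each of these fits. Of 19 alternatives, 1 ended the call, limma on unfiltered log2(FPKM + 1), where the log2 fold change was -0.80 (adjusted p = 0.0852).

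Runx3 (chromosome 4, 135120652 to 135177990) gave 54.9 and 59.9 CPM in MLL-ENL cells against 86.5 and 89.0 CPM. It was higher in both dYEATS libraries, 1.53-fold (log2 fold change 0.61 ± 0.11 SE, adjusted p = 0.0202). Cbfb (chromosome 8, 105170674 to 105217989) gave 153.5 and 175.5 CPM against 238.5 and 239.5 CPM, also without overlap, and rose 1.45-fold (log2 fold change 0.54 ± 0.12 SE, adjusted p = 0.033). The size of both changes held when a library was left out (0.55 to 0.68 in Runx3 and 0.44 to 0.64 in Cbfb), but both calls were lost when dYEATS replicate 1 or 2 was left out. Adjusted p was then 0.293 and 0.353 in Runx3 and 0.452 and 0.461 in Cbfb. Both calls also ended with limma on log2 FPKM, where adjusted p ran from 0.0773 to 0.17.

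Runx2 (chromosome 17, 44495987 to 44814797) had a log2 fold change as large as that of Runx3 but did not pass the test. Its libraries stood at 112.3 and 147.9 CPM in the MLL-ENL group and at 190.3 and 205.6 CPM in the dYEATS group. The groups did not overlap, but the MLL-ENL pair differed by 1.32-fold, the widest gap within a pair among the tested members. The log2 fold change was 0.61 ± 0.16 SE (adjusted p = 0.0601). Leaving out MLL-ENL replicate 1 gave 0.42 and leaving out MLL-ENL replicate 2 gave 0.82, and the gene was called in both of these fits (adjusted p = 5.78e-09 and 3.24e-13), where the spread rests on the close dYEATS pair. It was called in 5 of 19 alternatives, with adjusted p from 3.24e-13 to 0.436. Among these was the fit with the replicate number as a block (log2 fold change 0.62, adjusted p = 0.00644). Another was the edgeR fit with a gene-length trend removed (0.48, adjusted p = 0.0298), which was added after the data were seen. Of the annotated genes on the opposite strand of the Runx2 span only Runx2os1 overlaps its exons, with 7 to 21 counts per library against 3008 to 5893 counts of Runx2. Whether the counting used strand was not given in the sources used here.

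Neither tested ETO gene was called in the fit of all 4 libraries. Cbfa2t3 (chromosome 8, 122625141 to 122699109) gave 37.9 and 31.8 CPM in MLL-ENL cells and 27.5 and 27.6 CPM in dYEATS cells, without overlap (log2 fold change -0.34 ± 0.13 SE, adjusted p = 0.144). Cbfa2t2 (chromosome 2, 154436481 to 154539356) gave 23.0 and 27.5 CPM against 23.5 and 23.2 CPM, with both dYEATS values between the MLL-ENL values (log2 fold change -0.11 ± 0.13 SE, adjusted p = 0.612). Without MLL-ENL replicate 1 the log2 fold changes of Cbfa2t3 and Cbfa2t2 were -0.21 and -0.23. Without MLL-ENL replicate 2 they were -0.46 and 0.024, so that Cbfa2t2 pointed the other way. Both genes were called lower without MLL-ENL replicate 1, and Cbfa2t3 also without MLL-ENL replicate 2. The spread in these fits rests on the close dYEATS pair. Values of the antisense gene Gm10612, whose exons overlap those of Cbfa2t3, were 64 and 120 counts in MLL-ENL cells and 84 and 89 counts in dYEATS cells. Reads could be split between Cbfa2t3 and Gm10612, so the value of Cbfa2t3 is uncertain to that extent.

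**Figure D2:**
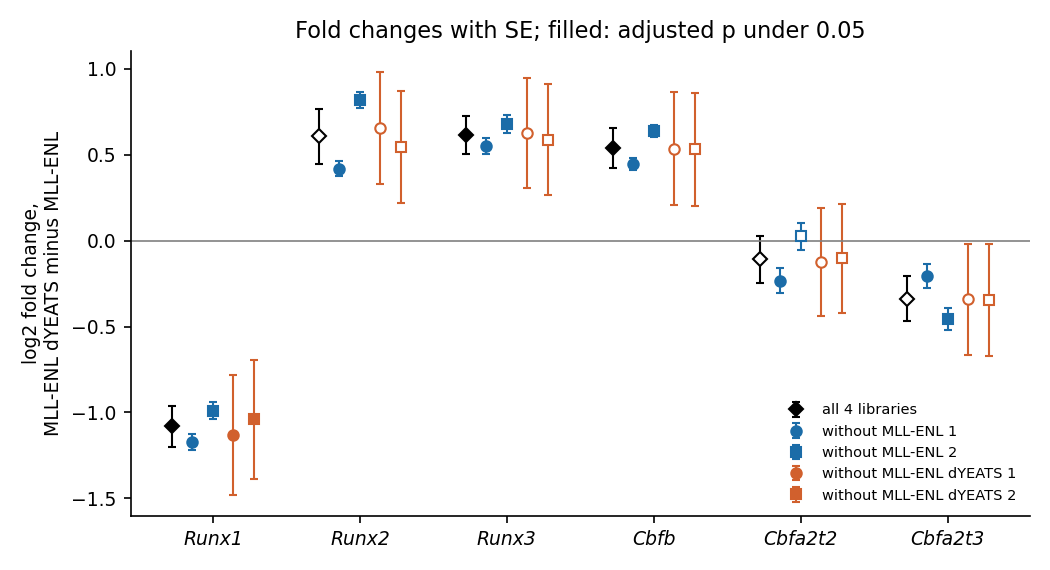
Log2 fold change (vertical axis, dYEATS minus MLL-ENL, edgeR) with SE for the 6 tested genes (horizontal axis), from all 4 libraries (black) and with each library left out, filled where adjusted p is under 0.05. Runx1 stays between -1.17 and -0.99 and filled throughout, whereas Runx3 and Cbfb lose their call without either dYEATS library.

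Ratios within a library need no scaling between libraries. Runx1 made up 42.4% and 34.9% of the summed FPKM of the 3 RUNX genes in MLL-ENL cells and 18.4% and 16.1% in dYEATS cells. Runx2 made up 32.0% and 40.1% against 48.5% and 48.1%, and Runx3 25.5% and 25.0% against 33.1% and 35.8%. None of these shares overlapped between the groups. The 3 shares add up to a fixed total, so a fall in Runx1 alone raises the others and they are not separate results. By CPM, groups did not overlap in 64.3% of all tested genes. The ratio of Runx1 to Runx3 went from 1.66 and 1.40 to 0.555 and 0.450, and that of Runx1 to Runx2 from 1.33 and 0.872 to 0.380 and 0.334. With 2 libraries a group the smallest two-sided exact permutation p for such a ratio is 0.333, so that test cannot pass at 0.05 and the ratios are given as values.

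The summed RUNX level moved less than its make-up. It was 64.8 and 92.0 FPKM in MLL-ENL cells and 96.4 and 97.8 FPKM in dYEATS cells, so that MLL-ENL replicate 2 lay closer to the other group than to MLL-ENL replicate 1. Cbfb, the common partner, stood at 0.878 and 0.769 times the RUNX sum in MLL-ENL cells and at 0.987 and 0.970 times in dYEATS cells. Relative to Runx1 alone it went from 2.07 and 2.20 to 5.37 and 6.03 times. Within the ETO genes the ratio of Cbfa2t3 to Cbfa2t2 overlapped between the groups (1.68 and 1.34 against 1.58 and 1.35). These are transcript levels, and protein was not measured.

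**Figure D3:**
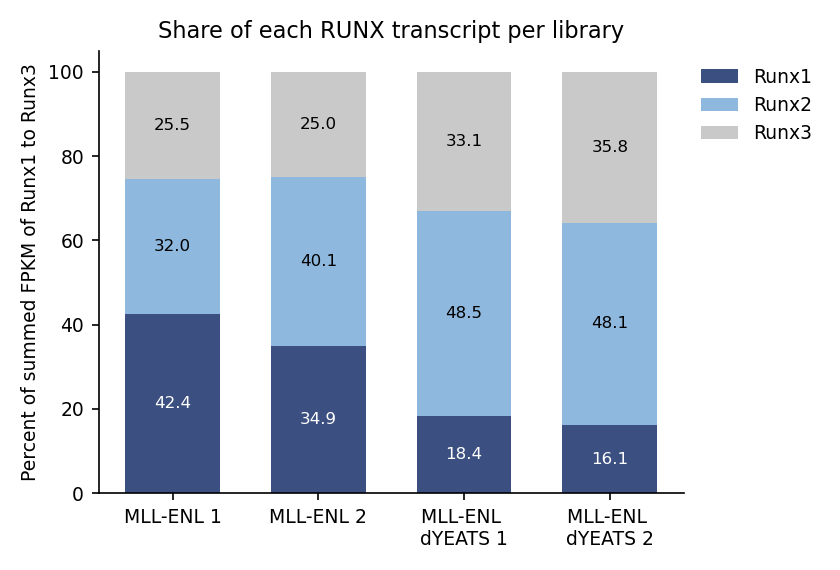
Share of Runx1, Runx2 and Runx3 in their summed FPKM (vertical axis, percent) in each of the 4 libraries (horizontal axis), stacked to 100. Runx1 takes 42.4% and 34.9% in MLL-ENL cells and 18.4% and 16.1% in dYEATS cells.

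RUNX genes have several transcripts, and the deposited tables carry a trace of their mix. FPKM is scaled by the effective length of a gene's transcripts weighted by their abundance, so that length can be computed back from the count, the FPKM and the library total. In 1450 genes with a single annotated transcript this implied length was a median of 289 nt under the annotated one, and it shifted between the groups by a median of 0.002 in size on the log2 scale. For Runx1 it was 3626 and 3716 nt in MLL-ENL cells and 3116 and 3310 nt in dYEATS cells. The groups did not overlap, as in 28.9% of the 11059 genes with such a value. The log2 ratio of the means was -0.19, lower than in all but 4.54% of genes. GENCODE lists 5 coding transcripts of Runx1, from 336 to 5861 nt long, and the length does not tell which of these changed.

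Runx2 and Runx3 varied within the MLL-ENL pair instead. For Runx2 the implied lengths were 5157 and 4057 nt in MLL-ENL cells and 4151 and 4443 nt in dYEATS cells. For Runx3 they were 3156 and 2633 nt against 2759 and 2588 nt. The groups overlapped in both genes, and MLL-ENL replicate 1 was the longest of the 4 libraries in each. Because of this, part of the gap in FPKM between the MLL-ENL libraries (20.74 and 36.85 FPKM in Runx2) is a gap in length and not in counts (112.3 and 147.9 CPM). Cbfb, whose coding transcripts all lie between 2487 and 2891 nt, stayed between 2508 and 2569 nt in all 4 libraries. Among the ETO genes Cbfa2t2 gave 4612 to 5616 nt with overlap, the longest in dYEATS replicate 1, and Cbfa2t3 gave 4529 and 4168 nt against 4160 and 4121 nt, without overlap but with a log2 ratio of -0.071.

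**Figure D4:**
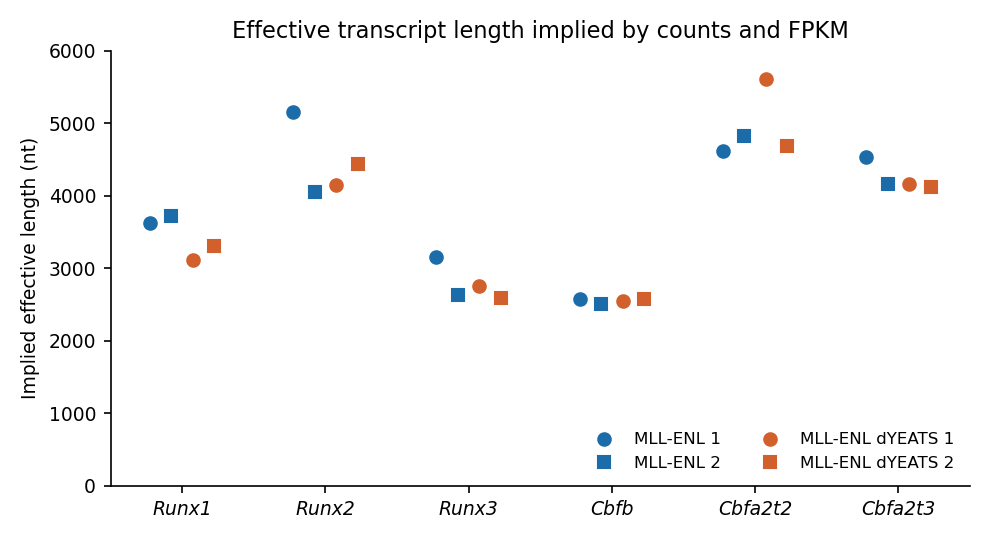
Effective transcript length (vertical axis, nt) computed from the expected count, FPKM and library total for the 6 genes with enough counts (horizontal axis), 1 point per library, MLL-ENL in blue and dYEATS in orange. Runx1 is shorter in both dYEATS libraries, and MLL-ENL replicate 1 stands apart in Runx2 and Runx3.

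Of the co-repressor complex that ETO proteins recruit 1 of 10 genes was called, beside 16.9% of all tested genes. Tbl1xr1, a subunit that helps exchange co-repressors for co-activators, rose from 190 to 280 CPM (log2 fold change 0.56, adjusted p = 0.044), a call that ended in 7 of 19 alternatives, among them each fit without an dYEATS library. The other 9 members, with log2 fold changes from -0.33 to 0.21, were not called, and the median over the list was -0.064. Among them, chosen after their values were seen, the scaffold Ncor1 stood at 390 and 331 CPM as group means and its deacetylase Hdac3 at 62.9 and 61.4 CPM. More of the list was called when an MLL-ENL library was left out and less when a dYEATS library was, as over all genes.

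DNA-binding factors and adaptors that carry ETO proteins to genes gave 2 higher and 2 lower of 10 tested (median -0.13). The other 5 of the 15 were under the filter, Tal1 and Gata1 among them. Over all tested genes 7.04% were called higher and 9.84% lower. The number called grew without an MLL-ENL library and shrank without a dYEATS library, and so did the number over all genes. Gata2, a zinc-finger factor of early progenitors, rose from 0.582 to 10.1 CPM (adjusted p = 0.000387). Lmo2, an adaptor that joins GATA and E-box factors, rose from 217 to 315 CPM (adjusted p = 0.0235). Ssbp2 and Ssbp3, which stabilise the LDB1 adaptor in the same complexes, were both lower, at 7.65 against 1.07 CPM and 61.6 against 36.6 CPM (adjusted p = 0.00378 and 0.0382). When dYEATS replicate 1 or 2 was left out the calls of Lmo2 and Ssbp3 were lost (adjusted p = 0.442 and 0.475, and 0.153 and 0.202). The E proteins Tcf3 (94.7 and 88.6 CPM as group means), Tcf12 (77.8 and 96.0 CPM) and Tcf4 (32.4 and 21.8 CPM) were not called. They are direct binding partners of ETO proteins and are named after their values were seen. Tcf4 was lower in both dYEATS libraries, with a log2 fold change of -0.568 (edgeR adjusted p = 0.058).

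Partners and modifiers of RUNX proteins gave 4 higher and 3 lower of 23 tested genes (median 0.080), beside 7.04% and 9.84% of all tested genes. Here too more genes were called without an MLL-ENL library and fewer without a dYEATS library, as over all genes. The 3 lower were DNA-binding partners. Elf4 and Ets1, ETS factors, went from 125 to 26.7 CPM and from 170 to 61.1 CPM, and Cebpa, a granulocyte factor that acts with RUNX1, from 279 to 84.3 CPM (adjusted p = 0.00133, 0.00191 and 0.00065). The ETS factor Spi1 moved the other way, from 176 to 242 CPM (adjusted p = 0.0404), a call that ended in 7 of 19 alternatives, the replicate block among them (adjusted p = 0.0532). Hipk2, a kinase that phosphorylates RUNX1, rose from 25.6 to 65.9 CPM, Tle1, a co-repressor that binds the end of RUNX proteins, from 11.2 to 22.5 CPM and Kat6b, an acetyltransferase, from 17.2 to 34.0 CPM (adjusted p = 0.00303, 0.00707 and 0.0385). The call of Kat6b ended in 5 of 19 alternatives. The other TLE genes that were tested lay higher than Tle1 and were not called. As group means they were Tle3 (145 and 116 CPM), Tle4 (38.5 and 47.2 CPM) and Tle5 (231 and 215 CPM).

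Of 17 genes known as RUNX1 targets 11 were tested, of which 4 fell and 3 rose (median -0.20). The shares over all tested genes were 9.84% lower and 7.04% higher. Il3 and Cd4 were at 0 in all 4 libraries. Granule proteins of promyelocytes were among those that fell. Mpo (myeloperoxidase) went from 530 to 60.9 CPM and Elane (neutrophil elastase) from 3420 to 1800 CPM (adjusted p = 0.000429 and 0.0105), and Cebpa also counts here. Csf1r, the receptor of macrophage growth factor, rose from 4.73 to 9.22 CPM and Cdkn1a, a cell-cycle inhibitor, from 43.4 to 78.1 CPM (adjusted p = 0.0346 and 0.00672), and Spi1 is the third that rose. The calls of Elane (adjusted p = 0.12 and 0.0964) and Cdkn1a (0.0674 and 0.0758) were lost without dYEATS replicate 1 or 2 and that of Csf1r without dYEATS replicate 1 (0.102). Fewer genes of the list were called when a dYEATS library was left out and more when an MLL-ENL library was, as over all genes. The list mixes genes that RUNX1 activates and genes it represses.

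**Figure D5:**
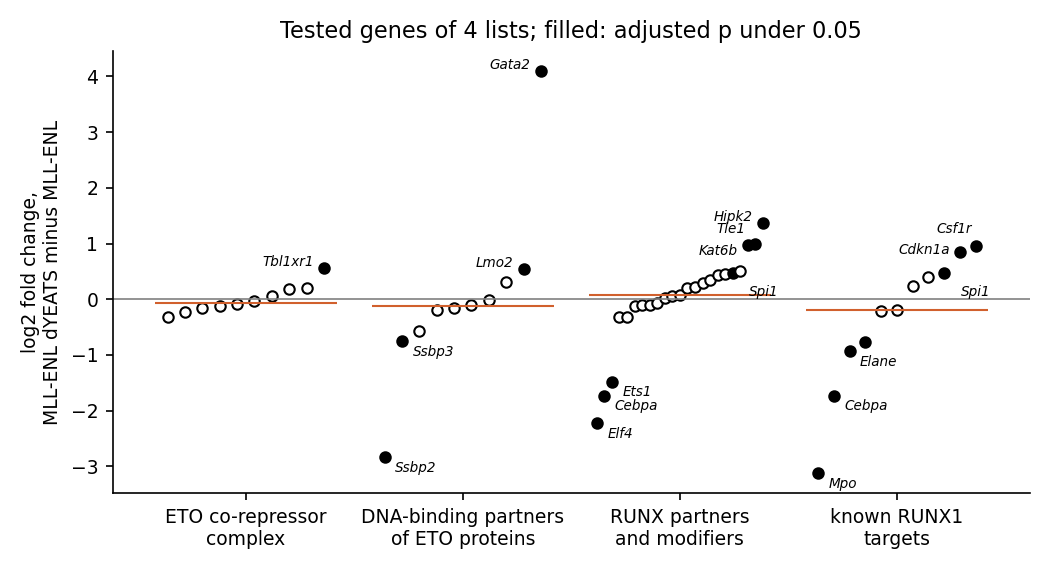
Log2 fold change (vertical axis, dYEATS minus MLL-ENL) of each tested gene of the 4 lists (horizontal axis), filled where adjusted p is under 0.05, with an orange line at each list's median. The medians lie between -0.20 and 0.080, with filled genes on both sides of 0 in all lists but the co-repressor complex.

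Markers of maturing myeloid cells also differed between the groups, in both directions. The share called over all tested genes was 7.04% higher and 9.84% lower. Summed over 12 granulocyte markers the level was 242 and 203 CPM in MLL-ENL cells and 487 and 499 CPM in dYEATS cells, with 6 called higher, 1 lower and 5 not called. Most of that sum's rise lay in S100a8 (30.0 to 134 CPM) and S100a9 (40.4 to 198 CPM), calcium-binding proteins of neutrophils and monocytes, while the granule gene Ngp fell from 54.0 to 20.9 CPM. Over 12 monocyte and macrophage markers it was 1210 and 1170 CPM against 899 and 921 CPM, with 5 called higher and 1 lower, the abundant Ly6c2 (1050 to 677 CPM), and C1qa and C1qb at 0. These single markers, and those named in the next sentences, were chosen after their values were seen. In bulk RNA fewer cells of a type and less RNA per cell cannot be told apart, and the part of these markers in the levels of the RUNX genes was not tested. Other cell types that use RUNX genes left few reads. Osteoblast and stromal markers summed to 0.427 to 0.715 CPM, with Bglap, Ibsp, Alpl and Cxcl12 at 0. The only one of these 9 to pass the filter, Pdgfra, a growth factor receptor of mesenchymal cells, was called higher at 0 and 1 counts in MLL-ENL cells against 11 and 11 counts (adjusted p = 0.0243). T-cell markers summed to 7.95 and 6.54 CPM in MLL-ENL cells and 1.02 and 0.838 CPM in dYEATS cells, nearly all of it from the kinase gene Lck and the surface protein gene Thy1, both called lower, and Cd3e, Cd3g, Cd4, Cd8a and Cd8b1 were at 0. Megakaryocyte markers summed to 2.76 to 4.56 CPM, erythroid markers to 1.07 to 1.34 CPM and B-cell markers to 0.711 to 1.19 CPM. Mast cell and basophil markers summed to 15.5 to 19.0 CPM, with opposite changes inside that sum. Of the 4 tested, Gata2 was called higher (0.582 to 10.1 CPM) and Hdc lower (8.56 to 2.81 CPM, edgeR adjusted p = 0.00501), and 2 were not called.

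For each called member the 3 genes with the nearest profile over the 4 libraries were taken from 8319 genes at a mean of 10 CPM or more, by the Euclidean distance of centred log2 CPM. Nearest to Runx1 were Fads1 (distance 0.0443), Pim1 (0.065) and Rabgap1l (0.0747). Pim1, a kinase gene, lay at 505 and 556 CPM in MLL-ENL cells and at 246 and 241 CPM in dYEATS cells. Nearest to Runx3 were Btg1, Aida and Vav2 (0.0223 to 0.0271), and nearest to Cbfb were Lsm8, Wdr76 and Rbm38 (0.016 to 0.017). With 4 libraries in 2 groups such likeness says little beyond a like fold change.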

How the data were processed

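Poly(A) RNA was measured in 4 libraries, 2 per group, grouped by title. Per the labels' protocols RNA came from a Qiagen RNeasy kit, and Lexogen poly(A) selection and a Swift kit made the libraries. STAR 2.7.8a, RSEM 1.3.3, cutadapt 2.3 and FastQC 0.11.8, with GRCm38, are listed in the submitters' processing notes. Their settings, annotation release and strand mode were not given in the sources used here. The authors deposited expected counts per gene (whole numbers as deposited) and FPKM, which the authors scaled by transcript length and library size. Totals were 28121268, 27812855, 28814798 and 28177480 expected counts.

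Counts were filtered with edgeR's filterByExpr (13245 genes), scaled by TMM (0.953, 1.01, 1.02 and 1.02) and compared by the quasi-likelihood F-test of edgeR 4.0.16 (R 4.3.3, legacy fit, residual degrees of freedom 2, prior 3.41) with Benjamini-Hochberg adjustment over all tested genes. Calls need an adjusted p under 0.05. CPM are TMM-scaled, and SE is the log2 fold change divided by the square root of F. Positions and transcript lengths come from GENCODE M21 and start windows from RefSeq (GRCm38.p6). Implied length needed at least 10 counts and 0.5 FPKM in every library. The alternatives were other scalings, filters, tests (DESeq2 1.42.0, limma 3.58.1 with voom or on log2 FPKM with pseudocounts of 1 and 0.1), a replicate block and each library left out. Removal of a gene-length trend and of the ribosomal RNA gene CT010467.1 was added after the data were seen. The named genes are all members, per list at most 3 called genes in each direction with the largest change at 1 CPM or more, overlapping genes and nearest profiles. The members and lists were chosen with earlier results of these data known.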

Additional observations from a re-analysis of the deposited data

How the results depend on the processing

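The count of members called higher was 2, and that of members called lower 1. With a library left out they ran from 0 to 3 and from 1 to 3. With limma on log2 FPKM 0 were called higher in the 3 settings (3, 3 and 2 at an unadjusted p under 0.05) and, without a filter, 0 lower (1 at an unadjusted p under 0.05). The fit without a library leaves a lone sample that is assumed to vary like the other group, and the cause of the lost calls was not tested. Cbfa2t2 turned from -0.11 to 0.024 without MLL-ENL replicate 2 and was -0.233 without MLL-ENL replicate 1. Gata2, Cebpa and Mpo were called in all 19 alternatives. Limma on unfiltered log2 FPKM ended the calls of the other genes named from the co-repressor, partner and target lists. All 3 limma FPKM settings ended those of Tbl1xr1, Lmo2, Ssbp3, Kat6b, Spi1 and Csf1r. Markers outside those lists and nearest profiles were not followed through the alternatives. The difference in the Runx1 share of the RUNX sum was -21.5 percentage points, and -25.2 to -17.7 with a library left out. The log2 ratio of the implied length of Runx1 was -0.19, and -0.236 to -0.15. Equal replicate numbers are not stated to share a batch, and deviations of same-numbered libraries had a correlation of -0.0677 over genes. With the replicate block 3 members were called higher (Runx2 besides Runx3 and Cbfb) and 1 lower, and over all genes 3133 against 2235. Without a library 7465 and 9099 genes were called (without MLL-ENL replicate 1 or 2), and 1419 and 1392 (without MLL-ENL dYEATS replicate 1 or 2). With limma on log2 FPKM it was 944, 910 and 674, and with a minimum of 5 CPM 1350.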
